A study of Mus musculus with 16 samples.

Results

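Chromosome 10 of the mouse was followed through its expressed genes in 16 organoid lines. The members were the 485 genes placed on chromosome 10 by GENCODE M21 whose mean level over the 16 lines was 5 CPM or more (counts scaled to a common library total), out of 2629 chromosome 10 genes in the tables. Of the members, 477 were protein coding. The chromosome was chosen for its measured level, so the medians below describe it and carry no test. Across all autosomes 9838 genes passed the same floor.

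The lines were organoids, small hollow cultures of tumor epithelium grown in domes of Matrigel, and came from 6 C57BL6/J mice of the KPC model of pancreatic ductal adenocarcinoma. In KPC mice, tumors are driven by alleles that a Cre recombinase switches on in the pancreas; the labels name the model but not the alleles, and give no age. There were 7 lines from primary tumors and 9 from metastases, all untreated. Mouse 1 gave primary line T3 and liver line M1. Mouse 2 gave T6 and peritoneal line M3P, mouse 3 gave T19 and peritoneal line M6, and mouse 4 gave T23 and peritoneal line M10. Mouse 5 gave T34, diaphragm line M15 and lung line M16. Mouse 6 gave 2 primary lines, T69a and T69b, with liver line M28, diaphragm line M29 and ovary line M30. Lines of 1 mouse share the animal, and each line was sequenced as 1 library.

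When a cell gains or loses a chromosome, most genes on it tend to rise or fall together in RNA, by an amount near the change in gene dose, while single genes still follow their own regulators. A shift shared by neighbouring genes can therefore mark a whole chromosome or a stretch of it. Mouse chromosome 10 has its centromere at 1 end, so its genes run from a proximal to a distal end. It carries Mdm2, whose protein marks p53 for destruction, Cdk4, a kinase that starts the cell cycle, and Hmga2, a chromatin protein of embryonic tissue. DNA was not measured in these samples, so gene copy number, RNA output per copy and the share of cells that carry a change cannot be told apart. In a bulk culture, fewer cells of a kind and less RNA per cell cannot be told apart either.

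The results turn on 2 places, shown here by the 250 bases before the annotated start of a gene, 5′ to 3′ on the gene's strand, from RefSeq for GRCm38.p6. Timp3 and Hsp90b1 are the members on either side of the step described below in line M15, and Cdk4 and Mdm2 lie beyond it. Capitals mark, in Hsp90b1, 2 matches, searched on both strands, to the endoplasmic reticulum stress element, CCAAT and CCACG with any 9 bases between them, a motif held by 0.113% of all 32851 RefSeq promoter windows of this length. In Cdk4 capitals mark 4 matches to the E-box CACGTG, which reads the same on both strands and is held by 6.02% of all windows. No motif was marked in Timp3 or Mdm2. The windows lie at chr10:86300162-86300411 (plus strand), chr10:86705445-86705694 (minus), chr10:127063285-127063534 (plus) and chr10:117710759-117711008 (minus), in the order printed. A match is a description of the letters only. Of the 485 members, 406 had an entry by symbol.
Timp3: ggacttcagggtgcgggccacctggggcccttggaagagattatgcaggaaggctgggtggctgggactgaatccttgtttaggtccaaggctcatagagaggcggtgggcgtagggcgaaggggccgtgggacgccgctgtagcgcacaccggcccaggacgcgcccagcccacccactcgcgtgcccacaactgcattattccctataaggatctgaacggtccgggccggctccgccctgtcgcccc
Hsp90b1: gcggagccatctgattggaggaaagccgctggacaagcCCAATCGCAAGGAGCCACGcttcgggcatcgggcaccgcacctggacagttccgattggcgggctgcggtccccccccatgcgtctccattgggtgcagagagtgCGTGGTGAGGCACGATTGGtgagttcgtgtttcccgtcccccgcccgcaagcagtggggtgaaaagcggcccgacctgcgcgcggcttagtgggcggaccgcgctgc
Cdk4: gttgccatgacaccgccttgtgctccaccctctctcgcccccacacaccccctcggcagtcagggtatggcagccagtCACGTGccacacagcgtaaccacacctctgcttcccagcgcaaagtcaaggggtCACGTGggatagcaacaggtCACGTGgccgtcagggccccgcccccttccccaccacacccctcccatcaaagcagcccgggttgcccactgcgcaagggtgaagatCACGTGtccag
Mdm2: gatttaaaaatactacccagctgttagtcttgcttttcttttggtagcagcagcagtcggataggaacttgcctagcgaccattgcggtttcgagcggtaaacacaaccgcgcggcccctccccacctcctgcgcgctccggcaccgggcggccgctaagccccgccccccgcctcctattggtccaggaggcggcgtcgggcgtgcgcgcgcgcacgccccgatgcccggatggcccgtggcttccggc

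Library totals ran from 24624420 to 49965492 expected counts, and 290520 to 2028300 of these fell on members. The lowest count on members belonged to M15, in which 3 genes that collect ribosomal RNA reads took 72.7% of the library, against 29.9% in T6 and 0.0185% to 18.5% elsewhere. For that reason each line's differences were centred on the median of the other autosomes' genes, and the plain CPM value is given beside it where it matters. T69a stands apart from the other primary lines in these data and was left out of the reference; it was kept in every stage comparison. Duct markers (Krt19, Krt7, Sox9, Epcam and Cdh1) summed to 1699 to 2698 CPM in tumor and 2293 to 4689 CPM in metastasis lines. Fibroblast markers summed to at most 0.775 CPM and endothelial markers to at most 0.647 CPM in any line, with all 7 and all 4 of them under 1 CPM everywhere. Immune markers summed to 1.51 to 5.23 CPM, with 4 of the 5 under 1 CPM everywhere. Hepatocyte markers moved with stage, at 6.65 to 112 CPM in tumor and 0.209 to 6.53 CPM in metastasis lines. Of these 4 markers, 1 was under 1 CPM everywhere. Mesothelial markers summed to 164 to 1134 CPM in tumor and 308 to 756 CPM in metastasis lines, although 2 of the 4 were under 1 CPM everywhere. The part of these marker lists in the stage results below was not tested.

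Chromosome 10 was low along its whole length in 4 of the 9 metastasis lines, 1 from each of mice 1 to 4, and high over its distal part in the 2 metastasis lines of mouse 5. In the mouse 6 metastasis lines the medians lay between -0.10 and -0.05, and their placement by bins depended on the settings, most of all in M30. For each gene the difference is log2(CPM + 0.5) minus the mean of that value over the 6 primary lines other than T69a, and the line's value is the median over the 485 members after centring. The medians were -0.57 in M10, -0.41 in M3P, -0.37 in M1 and -0.29 in M6, or 0.675, 0.753, 0.775 and 0.82 times the primary mean. M15 and M16 stood at 0.14 and 0.10. M28, M29 and M30 stood at -0.05, -0.10 and -0.10, and T69a at -0.11. The other 6 primary lines lay between -0.01 and 0.004, which is partly built in because they form the reference. Compared each with the other 5 instead, they lay between -0.01 and 0.005. That comparison only stretches the same differences by a fixed factor, so it is no separate check. As a scale, RNA in strict proportion to DNA would give -1 for 1 copy in place of 2, -0.415 for 3 in place of 4, 0.585 for 3 in place of 2 and 0.322 for 5 in place of 4.

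**Figure D1:**
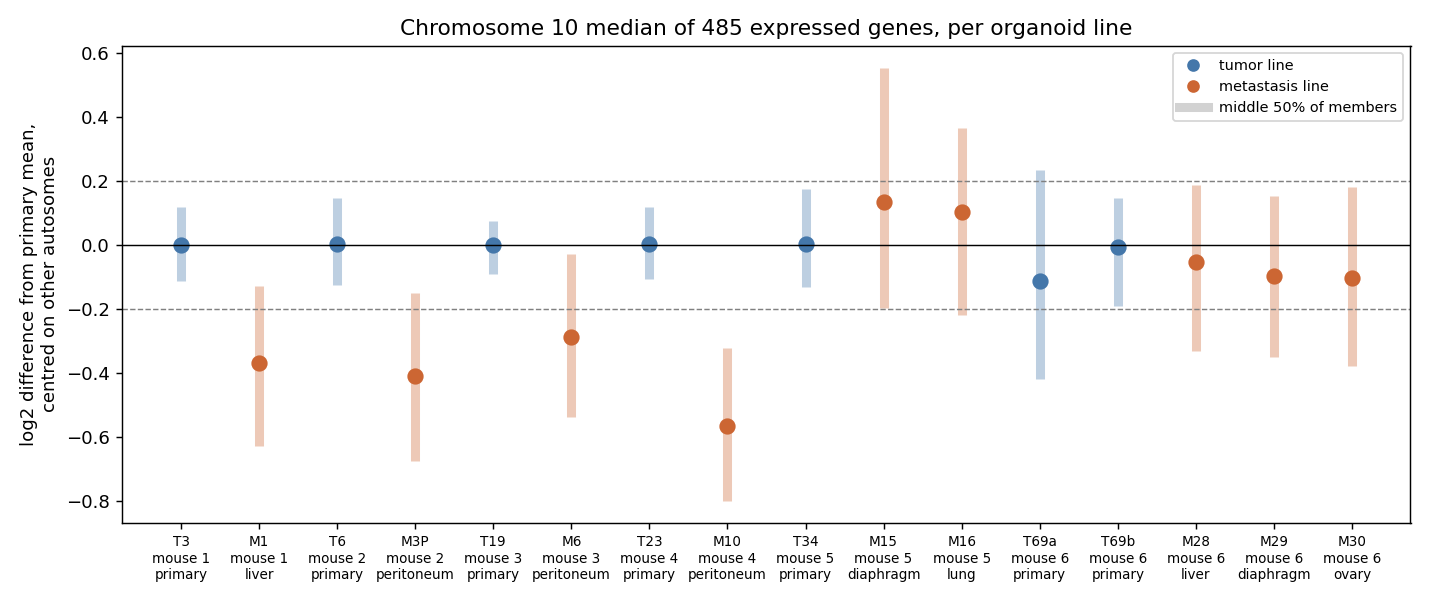
Median log2 difference of the 485 chromosome 10 members from the primary mean (y axis, centred on the other autosomes) in each of 16 lines (x axis, ordered by mouse); bars span the middle 50% of members and dashed lines mark 0.2 either way. M1, M3P, M6 and M10 lie between -0.57 and -0.29, while the other metastasis lines lie between -0.10 and 0.14.

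The shift involved most members in the low lines. In M10, 423 of 485 members lay below the primary mean, in M3P 413, in M1 405 and in M6 374, against 240 in T3 and 241 in T19. Members more than 0.3 below the primary mean made up 77.1% in M10, where 29.6% of all autosomal genes past the floor were that low. The shares were 62.1% in M3P (all autosomes 30.8%), 58.4% in M1 (26.5%) and 48.7% in M6 (27.8%). The chromosome was chosen on these differences, so the shares describe it. Members also differed among themselves: the middle 50% of M10 ran from -0.80 to -0.32 and that of M6 from -0.54 to -0.03. The width of that range, 0.48 to 0.53 in these 4 lines, was below the 0.57 to 0.73 of the other autosomes' genes in the same lines. Those genes were pooled over chromosomes with shifts of their own, such as 0.66 on chromosome 3 and -0.56 on chromosome 4 in M10. The widths are therefore not like for like, and no other single chromosome was compared. Still, 36 members (7.42%) in M10 and 57 (11.8%) in M6 stood more than 0.3 above the primary mean, where 26.6% and 26.4% of all autosomal genes did. In M15 187 members (38.6%) and in M16 147 (30.3%) stood that high, against 28.3% and 23.7%.

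The order of the medians could not be tested between lines of 1 library each. Split by abundance, the 162 members of highest mean level (50.9 to 2652 CPM) had medians of -0.56 in M10, -0.37 in M3P, -0.36 in M1 and -0.26 in M6. The 162 members of lowest mean level (5.04 to 21 CPM) had medians of -0.60, -0.46, -0.49 and -0.36 in the same lines. The shift was thus present in weakly and strongly expressed members, and somewhat larger in the weak ones. The genes nearest the floor were Adat2 (5.04 CPM) and Hcn2 (5.06 CPM) inside it and Mgat4c (4.91 CPM) and Zfp433 (4.89 CPM) outside it.

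Each metastasis line was also set against the primary line of its own mouse, gene by gene. M10 stood at -0.57 against T23, with 427 members lower and 58 higher. M3P stood at -0.44 against T6 (389 lower), M1 at -0.39 against T3 (391 lower) and M6 at -0.28 against T19 (357 lower). M15 and M16 stood at 0.15 and 0.10 against T34, with 293 and 279 members higher. In mouse 6 the direction depended on the primary line used: M28, M29 and M30 stood at -0.04, -0.07 and -0.08 against T69b and at 0.06, 0.02 and 0.01 against T69a. Without centring, on the library total alone, M15 stood at -1.66 and T6 at -0.50, so these 2 lines can be placed only relative to their other chromosomes.

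By stage, the metastasis lines averaged -0.18 ± 0.24 (SD, n = 9) and the tumor lines -0.01 ± 0.04 (SD, n = 7). The spread among metastasis lines was thus larger than the difference between the stages, -0.17. Within mice, metastasis minus tumor was -0.37, -0.41, -0.29 and -0.57 in mice 1 to 4, 0.12 in mouse 5 and -0.02 in mouse 6. By site, the 3 peritoneal lines averaged -0.42 ± 0.14 (SD, n = 3) and came from 3 mice. The 2 liver lines were at -0.37 (M1) and -0.05 (M28), and the 2 diaphragm lines at 0.14 (M15) and -0.10 (M29), so lines of 1 site fell on different levels. Lung and ovary had 1 line each. All peritoneal lines came from mice with no other metastasis line, so site and mouse cannot be told apart.

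Among the 19 autosomes, chromosome 10 had the second lowest stage difference in this measure. Chromosome 13 was lower at -0.24 and chromosome 4 came next at -0.16. Chromosome 10 was below -0.2 in 4 lines and chromosome 13 in 5. The SD over the 9 metastasis lines was 0.24 for chromosome 10, within the range of 0.05 (chromosome 2) to 0.34 (chromosome 19). Only part of the lines low on chromosome 10 were low on chromosome 4: M3P, M6 and M10 stood at -0.47, -0.34 and -0.56 there, while M1 stood at 0.04.

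**Figure D2:**
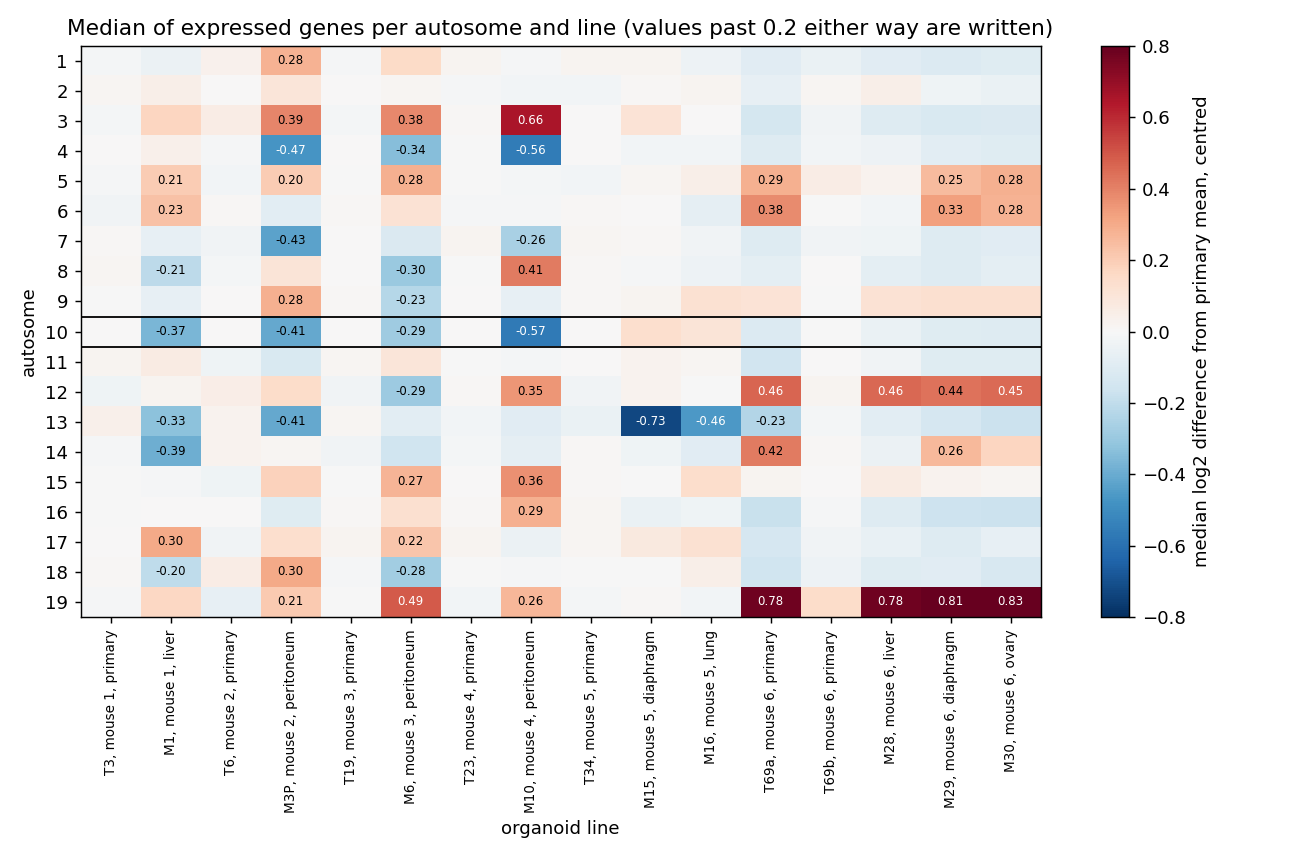
Median log2 difference from the primary mean for each autosome (y axis) and line (x axis), each autosome centred on all the others; colours run from -0.8 to 0.8 and values past 0.2 either way are written. The chromosome 10 row, boxed, holds 4 low values (M1, M3P, M6, M10) and none above 0.2.

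Along the chromosome, the low lines were low nearly everywhere. The chromosome was divided into 13 bins of 10 Mb with 14 to 101 members each, a bin counted as low under -0.2 or high over 0.2, and a line was called whole when 80% or more of its bins agreed and partial when 3 or more did. All 13 bins were low in M1 and in M10, 12 in M3P and 11 in M6. In M10 the bins ran from -0.81 (100 to 110 Mb) to -0.40 (0 to 10 Mb), and in M1 from -0.56 (40 to 50 Mb) to -0.27 (0 to 10 Mb). M3P had its weakest bin at the proximal end, with -0.17 at 0 to 10 Mb. M6 varied most, from -0.61 at 50 to 60 Mb to -0.001 at 100 to 110 Mb, a bin of 14 members. With a limit of 0.3, or with the deposited TPM values, too few bins of M6 were low and the line was called partial; the other 3 were whole in both. M3P and M10 were whole low in all 9 alternatives run, and M1 in 8: on the library total alone it became partial.

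The running median over 51 neighbouring members, in 435 windows, gave the same picture. It stayed below -0.2 in all windows of M10 (-0.68 to -0.43) and M3P (-0.53 to -0.23). In M1 it was below -0.2 in 94.5% of windows and in M6 in 81.8%. The windows nearest 0 in M1 (-0.13) and M6 (-0.08) lay 6.4 and 5.7 Mb proximal to the M15 step, in a gene-dense stretch where the windows of M28, M29 and M30 were also at their highest. No window of the 6 reference lines passed 0.2 either way.

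**Figure D3:**
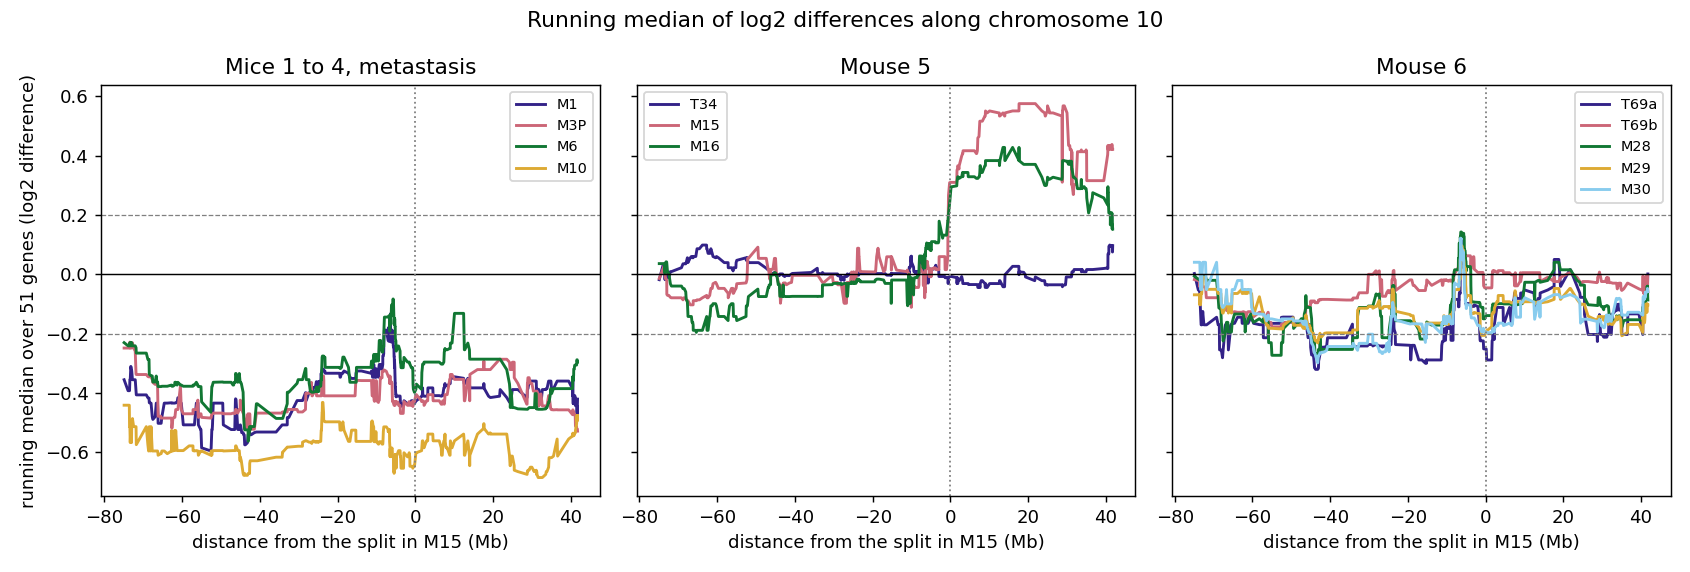
Running median of the log2 difference over 51 neighbouring members (y axis) against distance in Mb from the step in M15 (x axis, proximal to the left), with dashed lines at 0.2 either way. Metastasis lines of mice 1 to 4 stay below 0 throughout (left), M15 and M16 rise past 0.2 at the step while T34 does not (middle), and the mouse 6 lines stay between -0.32 and 0.14 (right).

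In mouse 5 the chromosome changed level partway. For each line, the split with the largest difference between the medians of both sides was taken, with 30 or more members on each side. In M15 the split lay between Timp3, which ends at 86349506, and Hsp90b1, which starts at 86690209. The 327 members proximal to it had a median of -0.02, the 158 distal to it 0.45, a difference of 0.47. In M16 the split lay slightly nearer the proximal end, between Tmem263 (end 85120618) and Cry1 (start 85131700), with -0.01 before and 0.30 after, a difference of 0.31. A split placed by the smallest sum of absolute deviations, a criterion added after the data were seen, fell between the same genes in both lines. Using the M15 split for both, the distal medians correspond to 1.37 and 1.23 times the primary mean in M15 and M16. Against T34, the primary line of the same mouse, they were 0.42 and 0.25, and the proximal medians -0.02 and 0.04.

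Most distal members took part. Of 158, 131 lay above the primary mean in M15 and 121 in M16, against 81 in T34. Members more than 0.3 above the primary mean in both lines numbered 62 of 158 distal (39.2%) and 46 of 327 proximal (14.1%). Of all autosomal genes past the floor, 15.5% were that high in both. The split was placed where M15 itself differed most, so a contrast between its sides was built in and these counts only describe it. The running median in M15 was above 0.2 in 135 unbroken windows, from the one centred on Fbxo7 to the last, and peaked at 0.58. In M16, 126 windows were above 0.2, with a peak of 0.43. M15 and M16 share a mouse, so their common step is not evidence from separate animals. At the M15 split, distal minus proximal medians lay between -0.07 (M3P) and 0.03 (M10) in M1, M3P, M6, M10, M28, M29 and M30. At their own best splits these lines also differed between the sides. The difference in M3P, -0.32, was as large as that of M16 but lay at the proximal end, between Ltv1 and Phactr2, with -0.11 over the first 31 members and -0.43 over the other 454. M1 (-0.19), M6 (-0.19), M10 (-0.18) and M30 (-0.17) had their best splits beside Ltv1 too, at the least number of members allowed or 1 more, again with the proximal side higher. M28 and M29 had 0.16 and 0.09 at other places. Steps were also found on other chromosomes of the same lines: chromosome 6 had a larger one in M15 (0.93) and in M16 (0.97), and the chromosome 10 step ranked 5 of 19 in M16.

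In T69a 5 of 13 bins were low, with the weakest and the strongest of them -0.23 at 40 to 50 Mb and -0.31 at 110 to 120 Mb. M28, M29 and M30 had 2, 1 and 2 low bins, under the 3 of a partial call. Of the 9 alternatives, 6 placed M30 as partly low and 1, the library total alone, as low throughout (median -0.27); 3 placed M29 and 1 placed M28 as partly low. Each of the 3 had its lowest bin at 50 to 60 Mb (-0.31, -0.29 and -0.29). That bin, with 22 members, was also the lowest in M15, M16, M6 and M3P (-0.20, -0.29, -0.61 and -0.50). It includes Gja1, a gap junction protein described below.

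Single members followed the line medians to different degrees. Pearson's r over 16 lines between a member's difference and the median of the other members was taken as a description; all points share their libraries. The middle 50% of members had r from 0.36 to 0.75, with a median of 0.62. Against the same chromosome 10 median, the 9353 genes of the other autosomes had a median r of -0.01. Each line was centred on these same genes, and the chromosome was chosen for its medians, so this contrast was partly built in. Members of other chromosomes were not set against their own medians. The 5 members with the highest r were Atp5b (0.96), a subunit of mitochondrial ATP synthase, Rnf41 (0.96), a ubiquitin ligase, Ube2n (0.96), a ubiquitin-conjugating enzyme, Lta4h (0.94), an enzyme of leukotriene synthesis, and Kitl (0.92), the ligand of the receptor Kit. All 5 lay distal to the M15 step, where the lines spread most.

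Levels of single genes are given as CPM on library sizes scaled by TMM, edgeR's normalization. Lta4h stood at 60.2 in M1, 57.8 in M3P, 70.7 in M6 and 59 in M10. It stood at 121 in M15 and 105 in M16, and at 83.6, 85.4 and 84.5 in M28, M29 and M30. The tumor lines ran from 84.9 to 104. Levels in M1, M3P, M6 and M10 thus lay below every tumor line, and those in M15 and M16 above every tumor line. M28 and M30 lay just under the lowest tumor line. Atp5b ran from 767 (M10) to 959 (M6) in the metastasis lines of mice 1 to 4, was 1468 in M15 and 1608 in M16, and ran from 1100.5 to 1354 in the tumor lines. Neither Lta4h nor Atp5b was called by stage (adjusted p = 0.175 and 0.27, edgeR's quasi-likelihood test with Benjamini-Hochberg adjustment).

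At the other end, the 5 members with the lowest r among those of 50 CPM or more were Galnt4 (-0.19), which adds the first sugar of mucin-type glycans, Pttg1ip (-0.11), Suox (-0.001), the mitochondrial sulfite oxidase, Hk1 (0.02), which traps glucose in the cell, and Col18a1 (0.03), a basement membrane collagen. Hk1 was higher in M10 (95.3 CPM) than in 6 of the 7 tumor lines although the chromosome was lowest there; it stood at 92.8 in T23, the primary line of the same mouse. Galnt4 lies within Poc1b on the same strand in the annotation, so reads of the pair may not separate cleanly.

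By stage, 93 of 485 members were lower in metastasis lines and 12 were higher, at an adjusted p under 0.05 in edgeR's quasi-likelihood test with mouse as a block. Over all 15573 genes tested 9.92% were lower and 6.59% higher, against 19.2% and 2.47% of the members. Among the other autosomal genes past the same floor, 9.55% were lower and 7.76% higher. The median log2 fold change was -0.20 over the members and -0.02 over all genes tested. Proximal to the M15 step 74 of 327 members were lower (22.6%) and 7 higher (2.14%). Distal to it 19 of 158 were lower (12%) and 5 higher (3.16%), so the distal share of lower calls was nearer the 9.55% above. The step was placed where M15 itself differed most, with M15 and M16 high beyond it, and both lines are in the stage test. The smaller share of lower calls on the distal side was thus partly built in. Every metastasis line lay below every tumor line in 6 members, Hsf2, Serinc1, Gstt2, Ilvbl, Gadd45b and Timp3, named after their values were seen; over all autosomal genes past the floor that share was 0.732%. With TMM-scaled CPM, a scale added after the data were seen, 4 members did so (Hsf2, Gstt2, Ilvbl and Tmbim4), and Timp3 no longer did, with M3P and T69a at the same level. No member had every metastasis line above every tumor line, against 0.356% of autosomal genes. The counts depended on the lines used: without T69a 133 members were lower and 30 higher. Leaving out M1, M3P, M6, M10, T3, T6, T19, T23 or T34 left 44 to 56 lower. Without M3P, M6, T6, T19 or T34, 5 or 6 were higher. With mouse as a block, a mouse left with lines of 1 stage adds nothing to the stage estimate. Leaving out either line of mice 1 to 4, or T34, thus removed that mouse from it, and these fits are not separate checks. Without mouse 5, 33 were lower and 6 higher, and without M15 and T6, the libraries richest in ribosomal RNA, 28 were lower and 4 higher.

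The 5 lowest fold changes with the same direction in all 6 mice belonged to genes that fell far beyond the chromosome's own shift. Timp3, a secreted inhibitor of matrix-degrading metalloproteinases, stood at 486 to 839 CPM in the tumor lines other than T69a. In T69a it was 34.1. The metastasis lines ran from 0.654 (M10) through a median of 16.3 to 34.1 (M3P). The log2 fold change was -5.19 ± 0.73 (SE, adjusted p = 0.0023). The SE of edgeR fold changes, here and below, is the absolute fold change divided by the square root of the test's F statistic. Gja1, a gap junction protein, was at 64.8 to 77 CPM in the same tumor lines, 2.1 in T69a and at most 10 in the metastasis lines (log2 fold change -4.75, adjusted p = 0.0055). Zfp365 (-3.64), Dram1 (-3.43), a p53 target linked to autophagy, and Glipr1 (-3.42) made up the 5. Timp3, Gja1, Zfp365 and Glipr1 passed in all 29 alternative fits, and Dram1 failed without the mouse block (adjusted p = 0.0606). Dram1 stood at 12.8 CPM in M15 and at 3.46 in T69b, so tumor and metastasis lines overlapped. None of the drops were limited to lines with a low chromosome: Timp3 was at 17.3 and 12.8 CPM in M15 and M16.

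The 5 highest were Nav3 (4.34 ± 1.08, SE), Arhgap45 (3.40 ± 0.82), Ptprr (2.83 ± 0.55), Lrig3 (2.43 ± 0.48) and Suox (1.88 ± 0.47). Ptprr, a receptor-type tyrosine phosphatase that acts on MAP kinases, stood at 15.2 to 57.9 CPM in metastasis lines and at 1.06 to 7.08 in tumor lines other than T69a, which stood at 35.6. Suox rose to 274 in M15 and 156 in M16, and was 32.8 in M1, 46.9 in M3P, 55.7 in M6 and 45.9 in M10. Its tumor levels were 6.3 to 42.2, with 126 in T69a. T69a lay within the range of the metastasis lines for Nav3, Ptprr, Lrig3 and Suox, and above all of them for Arhgap45 (59.3 against 14.4 to 52.7 CPM). The call for Ptprr held in all 29 alternatives (adjusted p up to 0.0439). Lrig3 lost its call without the mouse block (adjusted p = 0.0906), Nav3 in 16 of 29 alternatives (adjusted p up to 0.13), Arhgap45 in 10 (up to 0.203) and Suox in 8 (up to 0.0699). Leaving out M6, M3P, T6 or T19 ended the call for each of these 3, leaving out T34 those for Nav3 and Arhgap45, and leaving out M1, M10, T3 or T23 that for Nav3.

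**Figure D4:**
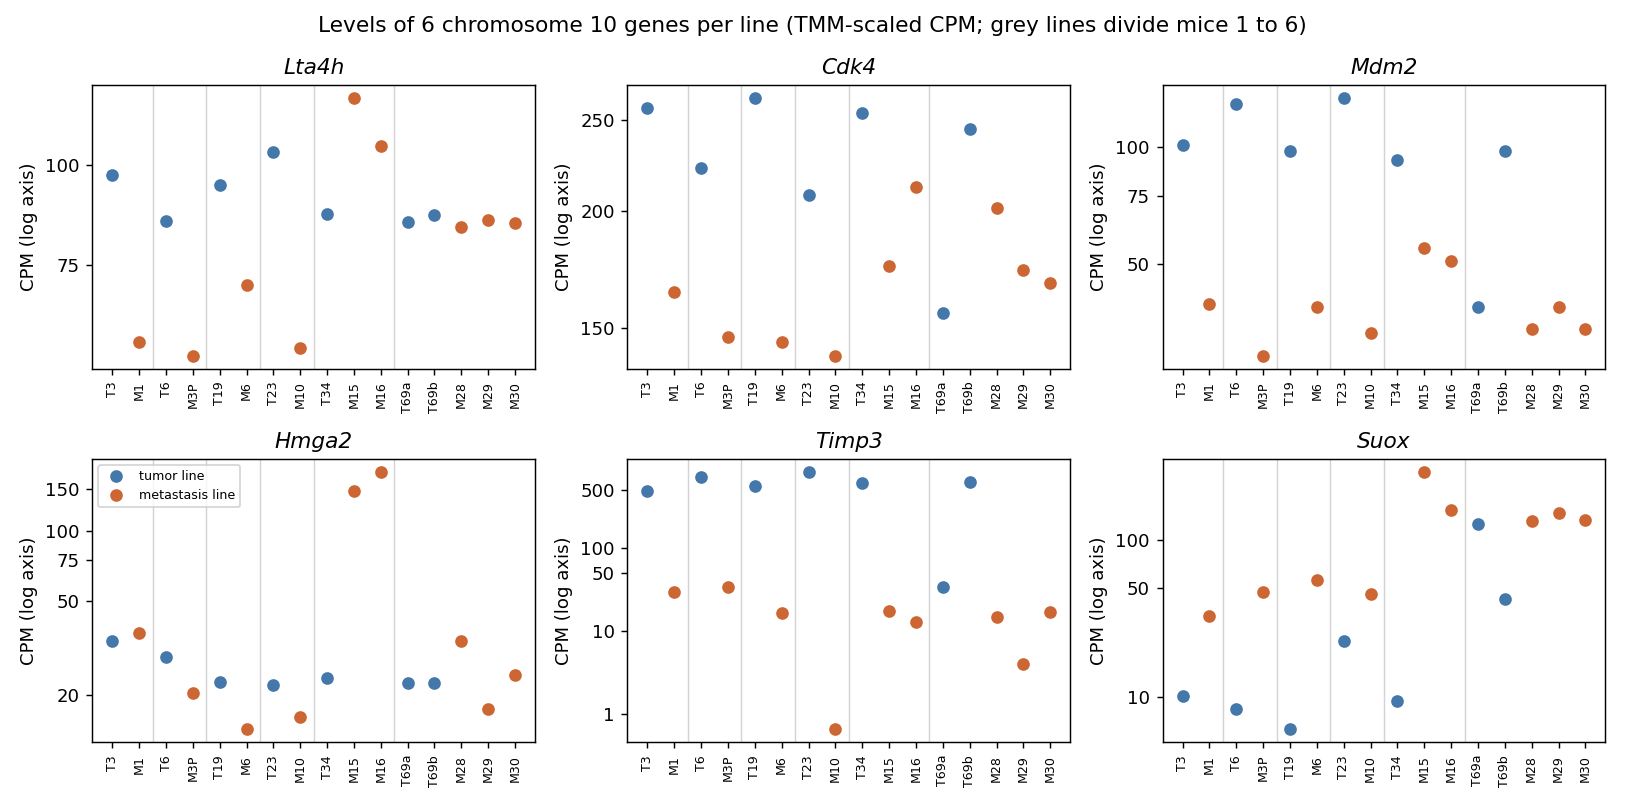
TMM-scaled CPM (y axes, log scales) of 6 members in each line (x axes, ordered by mouse, with grey lines between mice; blue tumor, orange metastasis). Lta4h follows the chromosome median, Hmga2 is high in M15 and M16 (147 and 179 CPM), and Timp3 is at or below 34.1 CPM in every metastasis line and in T69a.

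Among 80 members grouped by role, 0 were called higher by edgeR; at an unadjusted p under 0.05 there were 6, and DESeq2 called 4 (Enpp1, Col18a1, Socs2 and Lgr5). Lower calls numbered 13 of 80 by edgeR (16.2%, against 19.2% of all members and 9.92% of all genes tested). There were 26 at an unadjusted p under 0.05 and 17 by DESeq2, which called 115 of all 485 members lower and 29 higher. The unadjusted counts, here and by list below, have no share over all members or genes beside them. They do not set the lists apart from the other members. The groups were written with earlier results of these data known. Of 16 members that act in cell division and the p53 response, 3 were lower: Mdm2, Cdk4 and Gadd45b, a stress-induced partner of cell cycle kinases. That share, 18.8%, was close to the one over all members. The median log2 fold change of the 16 was -0.18. Mdm2 stood at 92.8 to 134 CPM in the tumor lines other than T69a. The metastasis lines ran from 29.1 (M3P) to 55 (M15), and T69a was at 38.7. The log2 fold change was -1.32 ± 0.21 (SE, adjusted p = 0.0039, lower in 6 of 6 mice), and it passed in all 29 alternatives. Within the metastasis lines its highest levels, 55 and 50.8, were those of M15 and M16. The 5 genes of the p53 output list (Eda2r, Cdkn1a, Ccng1, Trp53inp1 and Zmat3) moved with it: their summed level was 781 to 1324 CPM in the tumor lines other than T69a, 162 in T69a and 80.6 to 154 in the metastasis lines. Their part in the Mdm2 result was not tested.

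Cdk4 stood at 208 to 264 CPM in the tumor lines other than T69a and at 156 in T69a. It was 164 in M1, 147 in M3P, 145 in M6 and 140 in M10, 175 and 212 in M15 and M16, and 201, 173 and 167 in M28, M29 and M30. The groups overlapped: M16 lay above T23, and T69a lay below M1, M15, M16 and the metastasis lines of its own mouse. The log2 fold change was -0.47 ± 0.12 (SE, adjusted p = 0.0244), and the call was lost in 15 of 29 alternatives (adjusted p up to 0.0865). Among them were those without M1, M6, M10, M3P, T3, T6, T19, T23 or T34. In mice 1 to 4 the fits without either line of a pair overlap, so these losses are not all separate. Tspan31 overlaps Cdk4 on the opposite strand, and the strand setting of the counting is not given in the sources used here. The cyclin-dependent kinases Cdk1 (-0.18, adjusted p = 0.391) and Cdk2 (-0.07, adjusted p = 0.651) were not called. Stk11, the kinase that activates AMPK, followed the chromosome (r = 0.88), from 30.5 CPM in M10 to 57.5 in M15, with no stage call (-0.06, adjusted p = 0.686). Sesn1, a stress-induced inhibitor of mTORC1 (-0.08, adjusted p = 0.765), and Btg1, an antiproliferative gene (-0.10, adjusted p = 0.769), were not called either. Apaf1, the scaffold of the apoptosome, missed the threshold (-0.58, adjusted p = 0.0509) and passed in 4 of 29 alternatives, with DESeq2, with no count filter and without M15 or T69a.

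Of 13 signalling members none was called by edgeR, while 2 were higher and 3 lower at an unadjusted p under 0.05 and DESeq2 called 2 each way (Socs2 and Lgr5 higher, Kitl and Lrp1 lower). Erbb3, a receptor of neuregulins, had a log2 fold change of -0.004 and stood at 186 CPM in M15 and 110 in M16. Dusp6, which switches off ERK, stood at -0.37 (adjusted p = 0.134), Map2k2, a kinase upstream of ERK, at -0.03 (adjusted p = 0.869) and Sgk1, a kinase of salt handling, at 0.40 (adjusted p = 0.29). Lgr5, a receptor for R-spondin, stood at 0.98 (adjusted p = 0.062) and passed in 3 of 29 alternatives, with DESeq2, with no count filter and without T69a. The list's median fold change, -0.03, was close to the -0.02 of all genes tested. Fyn, Igf1, Nuak1 and Wif1 of this list were under the floor.

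Of 15 members in transcription and chromatin, Foxo3 and Tcf3 were lower (13.3%, below the share of all members). Foxo3, a factor restrained by AKT, stood at 16.5 CPM in M1, 18.8 in M3P, 27.3 in M6 and 21.8 in M10, and at 28.6 to 45.1 in the other metastasis lines. Tumor lines ran from 36.1 to 60.4, so the metastasis lines of mice 1 to 4 lay below all of them. So did M16 (28.6) and M28 (32.3), while M15, M29 and M30 lay within the tumor range. The log2 fold change was -0.75 ± 0.16 (SE, adjusted p = 0.0124, lower in 6 of 6 mice); without the mouse block the adjusted p was 0.0546. Hmga2 was 147 CPM in M15 and 179 in M16, against 14.3 to 36.6 in the other 7 metastasis lines and 21.9 to 34 in the tumor lines. No other line overlapped those of mouse 5. Its differences of 2.53 and 2.79 in M15 and M16 were far above the distal medians of 0.45 and 0.30. Stage did not separate it (0.19, adjusted p = 0.746). Hdac2, a histone deacetylase, followed the chromosome with r = 0.74 and was not called (-0.14, adjusted p = 0.347).

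Of 16 members in energy and redox metabolism 5 were lower: Mif, a secreted tautomerase, Txnrd1, the cytosolic thioredoxin reductase, and the glutathione transferases Gstt1, Gstt2 and Gstt3. The 3 transferases are close paralogs, so their separate counts are uncertain. Mif stood at -0.59 ± 0.12 by stage (SE, adjusted p = 0.0103), with 120 to 213 CPM in metastasis and 191 to 312 in tumor lines, which overlapped. Txnrd1 had -0.53 ± 0.13 (SE, adjusted p = 0.0173) and was lowest in M15 at 139 CPM, where the surrounding genes were not low; both calls were lost without mouse 5, and that of Txnrd1 also without T34. Pfkl, the liver type of phosphofructokinase, stood at -0.47 (adjusted p = 0.12) and Ddit4, an inhibitor of mTORC1, at -0.79 (adjusted p = 0.126). The 5 lower members made up 31.2% of the list, against 19.2% of all members and 9.92% of all genes tested, but 3 of them were the paralogs. The median of the list was -0.24.

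Of 9 translation members none was called by edgeR (2 were lower at an unadjusted p under 0.05, and DESeq2 called Eef2), although all 9 lay below the primary mean in M1, M10 and M3P and 8 of 9 in M6. Eef2, the translocation factor of the ribosome, stood at 1677 CPM in M1, 1706 in M3P, 1725 in M6 and 2004 in M10, and between 2455 and 2946 in the other metastasis lines. Tumor lines ran from 2557 to 3031. The metastasis lines of mice 1 to 4 thus lay below every tumor line, as did M16 (2455). M15, M28, M29 and M30 lay within the tumor range. The stage value was -0.37 ± 0.12 (SE) with an adjusted p of 0.0522, and it passed in 6 of 29 alternatives, among them DESeq2 and those without T69a, T69b or mouse 6. Of 4 innate defence members none was called by edgeR or DESeq2, and 1 was lower at an unadjusted p under 0.05. Tbk1, the kinase that activates IRF3, stood at -0.10 (adjusted p = 0.523) with r = 0.88 to the chromosome median.

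Of 7 members of the matrix and adhesion group, Timp3, Gja1 and Ccn2 were lower. That was 42.9% of a short list, against 19.2% of all members and 9.92% of all genes tested. Ccn2, a matricellular protein induced by YAP and TGF-beta, was 38.7 (M15) to 124 CPM (M10) in metastasis lines and 143 to 290 in tumor lines other than T69a, which stood at 66.6. The log2 fold change was -1.49 ± 0.29 (SE, adjusted p = 0.0078), and it passed in all 29 alternatives. Its order among the metastasis lines was the reverse of the chromosome's at both ends, highest in M10 and lowest in M15. Plagl1, an imprinted zinc finger gene, had a count of 0 in M10, which allows up to 0.0713 CPM at 3 counts, and stood at 2.14 to 15.2 CPM elsewhere. With 5.26 CPM on average it is near the floor. It was not called by stage (-0.01, adjusted p = 0.997). The metastasis lines spread from 0 to 15.2 CPM, so a difference either way could be missed.

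**Figure D5:**
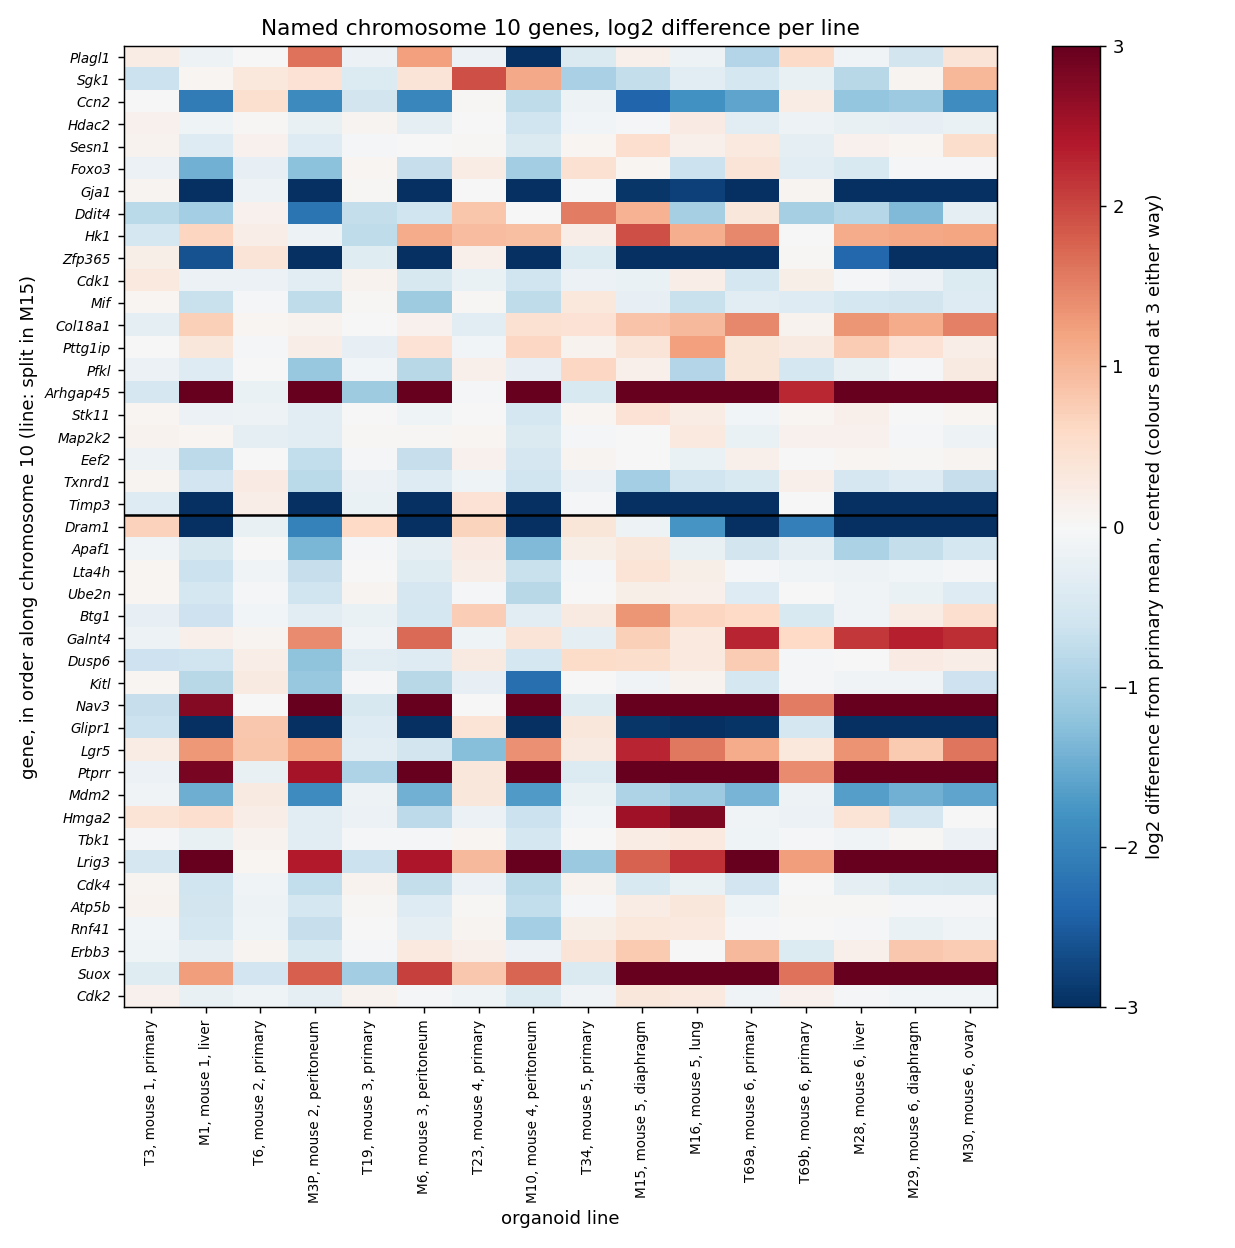
Log2 difference from the primary mean (colour, ending at 3 either way) for the named members, in order along the chromosome from the proximal end (rows), in each line (columns); the black line marks the M15 step. Timp3, Gja1, Zfp365 and Glipr1 are low in every metastasis line, Hmga2 is high in M15 and M16 (2.53 and 2.79), and members such as Atp5b and Rnf41 show the weaker pattern of the chromosome median.

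Members lower by more than 0.3 in all 3 peritoneal lines numbered 180 of 485 (37.1%), against 11.6% of autosomal genes past the floor, and this share was alike proximal (37%) and distal (37.3%) to the M15 step. For all 3 mouse 6 metastasis lines it was 85 (17.5%) against 14.3%.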

How the data were processed

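Total RNA with RIN above 9 was sequenced as stranded, ribosomal RNA-depleted libraries, per the labels' protocols; whether counting used strand is not given in the sources used here. The submitters' processing notes name FastQC 0.11.8, STAR 2.6.0c, RSEM 1.3.1 and GRCm38.p6. The authors deposited, per gene and line, RSEM's expected counts and TPM. Isoform tables were not used. Of 55487 gene IDs, 55394 matched GENCODE M21, 300 of them without the version suffix.

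Computed here: CPM from expected counts over the library total, a floor of 5 on the mean over 16 lines, a pseudocount of 0.5, the difference from 6 primary lines, and centring on the other autosomes. The deposited TPM values served only as an alternative. For the stage test, expected counts were rounded and fitted with edgeR 4.0.16 (R 4.3.3; TMM, filterByExpr, quasi-likelihood test, mouse and stage as terms, Benjamini-Hochberg adjustment over 15573 genes, threshold 0.05); DESeq2 1.42.0 was an alternative. Scripts were tested on simulated data. The mouse number comes from the labels, so mouse is the pairing block in the stage fit. Nothing says that the lines of 1 mouse are independent beyond their separate sites. The p-values measure the spread of these lines around the mouse and stage terms.

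The members and lists were chosen with earlier results of these data known. Named genes were 25 anchors along the chromosome, the 5 highest and 5 lowest stage fold changes among called members with the same sign in 6 mice (predicted models left out), and the 5 highest and 5 lowest r. Alternatives changed scaling, floor, pseudocount, unit, reference, filter, tool, bin size and limit, and left out each line, each mouse and the 2 libraries richest in ribosomal RNA. Acinar markers summed to at most 1.73 CPM.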

Additional observations from a re-analysis of the deposited data

Results flagged for a closer look

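Within the 7 tumor lines, T69a lay apart from the others in its chromosome 10 median, -0.11 against -0.01 to 0.004. The same line lay apart in the bin from 60 to 70 Mb (-0.24 against -0.01 to 0.01) and in the bin from 110 to 120 Mb (-0.31 against -0.02 to 0.07). These 3 values came from 28 groups of values examined in this way. T69a was left out beforehand from the reference that the other tumor lines form, and so could lie farther from it. Its distance was thus partly built in, and no rate expected by chance can be set against these 3 values. The distal members stood 0.81 higher on the log2 scale in the 2 metastasis lines of mouse 5 than in the 3 peritoneal lines; every line of the first group was above the primary mean and every line of the second below it, and the difference was not tested.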

How the results depend on the processing

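The stage difference of the chromosome median, -0.17, stayed negative in all alternatives run, from -0.12 to -0.21 when single lines were left out, and -0.39 on the library total alone. Lines called low over the whole chromosome numbered 4, and 6 on the library total alone: M6, M10 and M3P kept the call, M1 became partly low, and M15, M30 and the reference line T6 gained it, so that 1 line in place of 2 was partly high. With TPM or a limit of 0.3 there were 3, without M6. Members called higher (12) numbered 29 with DESeq2, 19 without the count filter, 6, 5, 6 and 23 without mouse 2, 3, 5 and 6, and 4 without the 2 libraries richest in ribosomal RNA (M15 and T6). Members called lower (93) numbered 50, 47, 45, 52 and 33 without mice 1 to 5, and 28 without those 2 libraries. Leaving out single lines gave 5 to 30 higher and 44 to 133 lower. The cause of these changes was not tested. Without the mouse pairing (no replicate block) 10 were higher and 73 lower. Of 1247 values for named genes under alternatives, 68 lost and 32 gained a call and none reversed. M15 has the fewest counts on members, which limits single weak genes there most.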
